A study of Drosophila melanogaster with 4 samples.

Results

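MicroRNA genes were examined in a map of where Doublesex, the transcription factor at the bottom of the fly sex determination cascade, sat on chromatin. A gene was taken when its symbol in the Ensembl annotation of dm6 starts with mir-, which in that annotation also covers bantam (mir-ban) and let-7 (mir-let7). This gave 262 of 17873 annotated genes, transposable elements left out. Of these, 56 lie on 2L, 55 on 2R, 31 on 3L, 58 on 3R, 2 on chromosome 4, 58 on X and 2 on an unplaced scaffold of ribosomal DNA, which holds no summit. The hairpins have a median length of 92 bp and a range of 50 to 174 bp. Joining hairpins on the same strand with gaps of at most 10 kb gave 205 genomic clusters, of which 22 hold 2 or more hairpins and 183 hold a single one.

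All samples were whole prepupae of Drosophila melanogaster, 24 h of age, males and females pooled, from a transgenic line that stably expresses Doublesex with a green fluorescent protein at its C terminus. Chromatin was precipitated with an anti-GFP antibody and sequenced (ChIP-seq). The 4 biological replicates, with 1 technical replicate each, form 1 group, so there was no contrast between sexes, stages or genotypes to test. The labels do not say which Doublesex isoform carries the tag, nor which promoter drives it, and whole animals mix all tissues, so weak binding in many cells and strong binding in few cannot be told apart. Each replicate has a deposited list of 30000 peak summits, a pooled list has 30000, and a list of 9154 reproducible summits was derived from 3 replicates, numbered 2, 3 and 4. Replicate 1 therefore lies outside the reproducible list. By position the 9154 are also the strongest 9154 of the pooled list, so a place in the list does not by itself mean a summit in each replicate, and support by replicates is given beside the results. Read depth is unknown, because the lists hold no read counts.

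A microRNA is cut from a hairpin in a longer primary transcript by the nuclear enzyme Drosha with its partner Pasha, and then by Dicer-1 in the cytoplasm, before an Argonaute protein takes it up. Bases 2 to 8 of the mature RNA, the seed, pair with target messages, so hairpins with the same seed can share targets. The hairpin can lie in its own long noncoding transcript or in an intron of a protein-coding gene, and a transcription factor that acts on it may sit at the start of that host transcript, far from the hairpin. At the onset of metamorphosis the steroid ecdysone switches on the let-7 complex, a well studied change in microRNAs at this stage.

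The mature RNAs below belong to the hairpins on which the results turn, and are given so that the products of the loci described can be recognised. The sequences are those annotated by RefSeq on Release 6 of the genome, in which 260 of the 262 genes, and all 51 genes with a reproducible summit within 2 kb, have a mature sequence. Capitals mark the seed.
mir-279: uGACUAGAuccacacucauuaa
mir-996: uGACUAGAuuucaugcucgucu
mir-iab-4: aCGUAUACugaauguauccuga
mir-iab-8: uUACGUAUacugaagguauaccg
mir-ban: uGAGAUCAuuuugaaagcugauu
mir-276a: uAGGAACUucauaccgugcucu
mir-let7: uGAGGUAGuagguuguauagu
mir-100: aACCCGUAaauccgaacuugug
mir-125: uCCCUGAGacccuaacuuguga
mir-92a: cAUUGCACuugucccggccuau
mir-92b: aAUUGCACuagucccggccugc
mir-1: uGGAAUGUaaagaaguauggag
These come from the 3′ arm of the hairpin, except those of mir-iab-4, mir-iab-8, mir-let7, mir-100 and mir-125, which come from the 5′ arm. mir-279 and mir-996 share the seed GACUAGA, and mir-92a and mir-92b share AUUGCAC.

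As a class, microRNA genes had a Doublesex summit nearby about as often as positions of the genome at large. A reproducible summit lay within 2 kb of 51 of the 262 hairpins, 19.5% (exact binomial 95% interval 14.9 to 24.8%), while 18.6% of all positions on the chromosome arms lay that close to one. Outermost starts of protein-coding genes did so in 30.3% of cases, tRNA genes in 39.0% (113 of 290), snoRNA genes in 38.7% (104 of 269) and snRNA genes in 15.6% (5 of 32). The interval covers counting error only, and hairpins of a cluster can share a summit. Counted by clusters, 40 of 205 (19.5%) had a summit. The 51 genes comprise 14 on 2L, 11 on 2R, 5 on 3L, 12 on 3R and 9 on X, and neither chromosome 4 nor the ribosomal DNA scaffold contributed one. Most of them, 31 genes, had 1 summit within 2 kb, 15 had 2, 3 had 3, and mir-4968 and mir-4962 had 4 each.

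**Figure D1:**
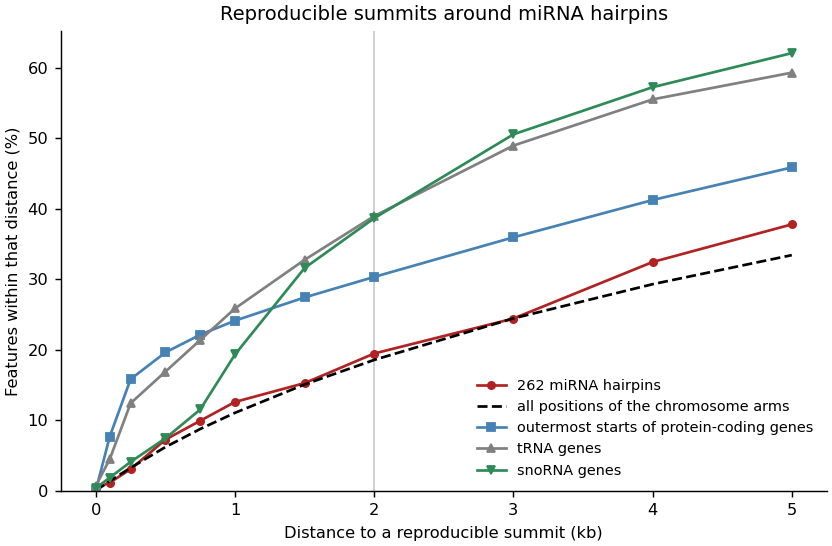
Share of features (%, vertical axis) with a reproducible summit within the distance on the horizontal axis (kb), for the 262 microRNA hairpins, all positions of the chromosome arms, outermost starts of protein-coding genes, tRNA genes and snoRNA genes. The microRNA line follows the dashed line of genome positions, at 12.6 against 11.1% within 1 kb and 19.5 against 18.6% within 2 kb (grey vertical line), and the other 3 lines lie above it from 0.25 kb on.

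The replicates gave the same picture one by one. Among the strongest 10000 summits of each list, the lists of replicates 1 to 4 had one within 2 kb of 60, 54, 54 and 56 hairpins. That is 21.4% ± 1.08 (SD, n = 4) of the 262 genes, and 19.7% ± 0.346 (SD, n = 4) of genome positions, with 19.2, 19.8, 20.0 and 19.8% in replicates 1 to 4. In all 4 replicates together 35 genes had such a summit, and each of these 35 is among the 51 genes of the reproducible list. At the other end, 185 hairpins had a strong summit in no replicate, and 126 hairpins (48.1%) had no summit of any of the 6 lists within 2 kb. The pooled list reached 99 hairpins (37.8%), against 37.3% of genome positions, and 48 of the 99 had no reproducible summit. Genome shares were not counted for the 35, 185 and 126 hairpins above, so these counts are not read as results about microRNA genes.

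The 51 genes were reached by 67 distinct reproducible summits, 0.732% of the 9154. Support by a replicate was counted as a summit within 100 bp among its strongest 10000. Replicates 1 to 4 supported 49, 55, 58 and 53 of the 67 summits, a mean of 80.2% ± 5.63 (SD, n = 4), against 81.1% ± 5.08 (SD, n = 4) of all reproducible summits, with 74.0, 81.5, 85.8 and 83.1% in replicates 1 to 4. All 4 replicates supported 32 of 67, 47.8% (exact binomial 95% interval 35.4 to 60.3%), against 53.2% of all summits. Their median signal value, the score the authors' peak caller gave each peak, was 427, against 463 for all reproducible summits, and ranged from 257 to 5170. Of the 67, 1 (1.49%) was among the strongest 100 of the 9154, and 6 (8.96%) were among the strongest 1000. These shares are near those that the 100 and the 1000 make up of the 9154, and are not read as a trait of summits near hairpins. The bases around the summits, 50 on each side, had a median GC content of 42.6%, against 37.6% over all reproducible summits.

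The strongest of the 67 lay at the start of the transcript that carries mir-279 and mir-996. These microRNAs with a shared seed are known for blocking the formation of carbon dioxide sensing neurons on the maxillary palps. The summit at 3R 29214444 had a signal value of 5170 and rank 66, and it ranked 64, 54, 71 and 82 in the lists of replicates 1 to 4, which are of equal length. It lay 118 bp upstream of the annotated start of lncRNA:CR31044 and 1141 bp upstream of mir-279 (FBgn0262448, 3R 29215585 to 29215684, plus strand, in an exon of that noncoding gene). The 4 ranks span a narrow range, and replicate 1, outside the reproducible list, falls inside it. A weaker summit in the same transcript, 347 bp upstream of mir-279, had a signal value of 608 and ranked 2796, 4251, 6025 and 2665 in replicates 1 to 4. It was also the only reproducible summit within 2 kb of mir-996 (FBgn0262404), at 1946 bp.

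The iab-4 locus of the bithorax complex held the second strongest of the 67. One hairpin is read on both strands here, as mir-iab-4 from the plus strand (FBgn0262462) and as mir-iab-8 from the minus strand (FBgn0262290), both at 3R 16856275 to 16856342, and their products repress the Hox genes Ubx and abd-A. The summit at 3R 16857657 had a signal value of 2881 and rank 219, and its ranks were 652, 368, 166 and 156 in replicates 1 to 4. It was in the strongest 1000 of each replicate, and lower in replicate 1 than in the others. It lay 1315 bp from the hairpin, downstream along the strand of mir-iab-4, in an intron of MSAmiP and lncRNA:iab8, transcripts of the opposite strand. A summit near the start of lncRNA:iab8, 67472 bp from the hairpin, was weak, with a signal value of 267 and a summit among the strongest 10000 of 2 replicates.

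bantam, a growth-promoting microRNA that restrains the cell death gene hid, had a summit on each side. The upstream one at 3L 640778 lay 1430 bp from the hairpin (FBgn0262451, 3L 642208 to 642288, plus strand) in an exon of lncRNA:CR43334. Its signal value was 1261, and its ranks of 1248, 1088, 1100 and 1238 in replicates 1 to 4 lay close together. The downstream one at 3L 642784, 496 bp away, had a signal value of 714 and ranked 2607, 2963, 2217 and 2154. The outermost start of lncRNA:CR43334 lies 13.8 kb upstream of the hairpin and had a summit of its own, 84 bp upstream, with a signal value of 706 and ranks of 4024, 1805, 3740 and 3601. In all, 9 reproducible summits lay along the transcript and within 3 kb of its ends.

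Genes for microRNAs of developmental timing and ecdysone signalling were reached in 5 of 7 cases, against the 19.5% of all microRNA genes. Among genes with a name or a number below 1000, as all on this list have, the share was 22.4%. The list was made with earlier results of these data known, and 3 of the 5 sit in 1 cluster, so the count describes 3 loci. In the let-7 complex, which carries mir-100, mir-let7 and mir-125 on lncRNA:let7C, a summit at 2L 18470572 lay within 2 kb of all 3 hairpins, 862 bp upstream of mir-100. It had a signal value of 573 and ranked 1853, 3549, 4491 and 3881 in replicates 1 to 4. A second one, at 2L 18469891, reached mir-100 alone and was weaker, at 416. The strongest summit of the transcript was 15194 bp from the nearest hairpin, 523 bp inside the annotated start, with a signal value of 814 and ranks of 2167, 2420, 2624 and 1695. Altogether 11 reproducible summits were spread along lncRNA:let7C and the 3 kb on each side, none of them among the strongest 1000.

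mir-14, which limits the level of the ecdysone receptor and protects cells from death, had its summit 6 bp from the start of lncRNA:CR43651 and 912 bp upstream of the hairpin (FBgn0262447). That summit had a signal value of 1239 and ranked 988, 679, 2209 and 1246 in replicates 1 to 4. mir-8, the fly member of the miR-200 family and a promoter of body growth from the fat body, had 2 summits with signal values of 573 and 258, at 924 and 93 bp upstream. The stronger one ranked 2992, 3917 and 3733 in replicates 1 to 3 and had no summit within 100 bp in replicate 4. The strongest summit at a start of its host lncRNA:CR43650, 2549 bp from the hairpin, had a signal value of 752 and ranked 5873, 6331, 1963 and 1667. mir-34 and mir-252 of the same list had no summit within 2 kb, and their nearest were 8334 and 11167 bp away.

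Among 10 microRNAs of growth and cell survival, 3 had a summit, 30%. The share was 19.5% of all microRNA genes and 22.4% of those with a name or a number below 1000, as all on this list have. This list too was made with earlier results of these data known. The 3 were mir-ban, mir-282 and mir-bft (mir-263a), which protects bristle cells from death. mir-282 had summits 1938 and 745 bp upstream, with signal values of 669 and 344, the farther of them secondary to the stronger summit given next. The strongest summit at a start of its host lncRNA:CR43626, at 3L 3248865, lay 2157 bp from the hairpin, just beyond 2 kb, with a signal value of 1949, rank 503 and ranks of 644, 635, 433 and 434 in replicates 1 to 4. The 2 summits near mir-bft were weak, at 343 and 263. Without one were mir-7, mir-9a, mir-11, mir-278, mir-263b, mir-308 and mir-184, with their nearest summits 2469 to 4825 bp away.

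Among 12 microRNAs of the nervous system and sense organs, 5 had a summit. The share was 19.5% of all microRNA genes and 22.4% of those with a name or a number below 1000, as all on this list have. Like the others, the list was made with earlier results of these data known. The 5 are mir-279 with mir-996 in 1 host, mir-iab-4 with mir-iab-8 at 1 hairpin, and mir-276a, known for a role in olfactory memory, and so stand for 3 loci. mir-276a (FBgn0266076, 3L 10365228 to 10365325, plus strand) had 2 strong ones. The summit at 3L 10365118, 110 bp upstream of the hairpin, had a signal value of 1183 and ranked 1340, 1348, 1132 and 1470 in replicates 1 to 4. The one at 3L 10363930 lay 89 bp upstream of the most hairpin-proximal start of lncRNA:CR46006, with a signal value of 1100.0 and more scattered ranks of 618, 1598, 2520 and 1162. mir-276b, which has the same seed and lies in another cluster, had none within 2 kb, with the nearest at 3745 bp. mir-124, mir-137, mir-190, mir-219, mir-10 and mir-133 also had none.

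**Figure D2:**
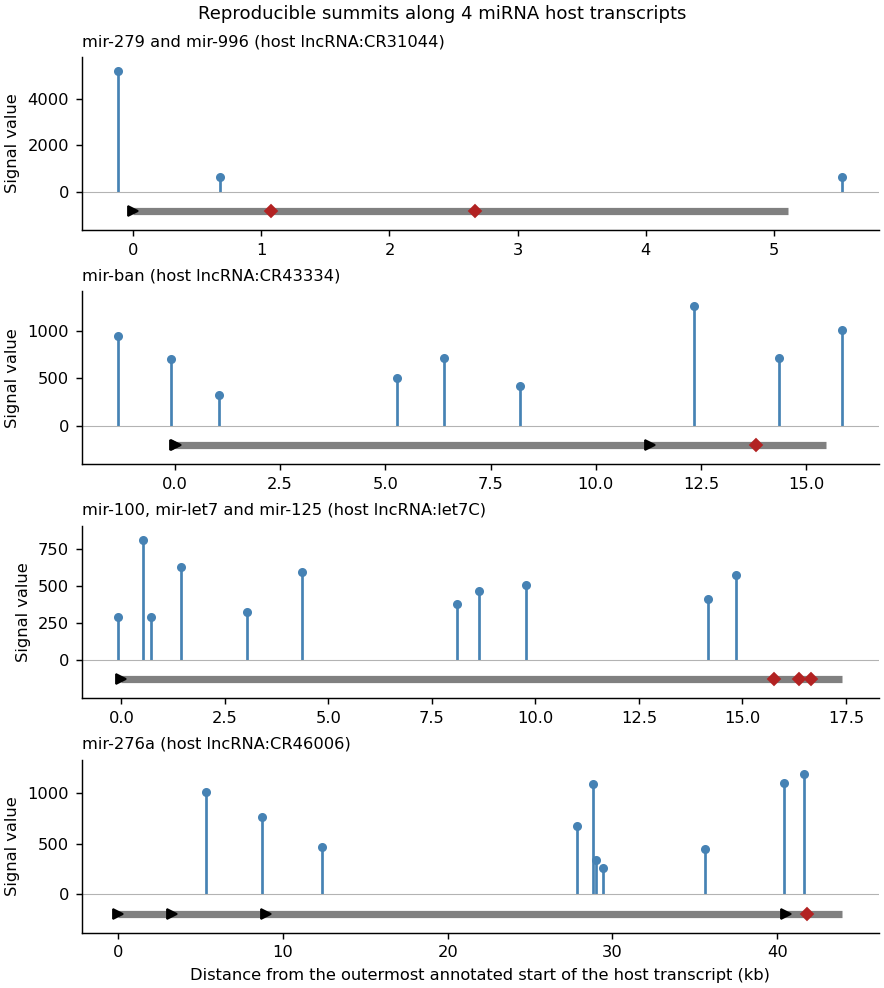
Reproducible summits along 4 host transcripts of microRNAs, with the distance from the outermost annotated start in kb on the horizontal axis and the authors' signal value as the height of each blue stem. Grey bars are the host genes, black triangles their annotated starts and red diamonds the hairpins. A single tall stem of 5170 stands at the start of the mir-279 and mir-996 host, while the other 3 hosts carry 9 to 11 summits of at most 1261 over their length and 3 kb on each side.

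The muscle list had 3 of 4 members with a summit. The share was 19.5% of all microRNA genes and 22.4% of those with a name or a number below 1000, as all on this list have. The list is short and was made with earlier results of these data known, so the count depends on which microRNAs were listed. mir-92a and mir-92b lie in 1 cluster in jigr1, so the 3 stand for 2 loci, and the strongest of the summits near mir-92a sat 18 bp from a start of jigr1, 1604 bp downstream of the hairpin, with a signal value of 947 and even ranks of 1805, 2065, 1967 and 1864 in replicates 1 to 4. mir-92b had a summit 108 bp downstream with a signal value of 467. mir-1, the conserved microRNA of muscle, had a weak summit 590 bp upstream near the start of lncRNA:CR45361, with a signal value of 304 and ranks of 8481, 6938, 7748 and 9360. mir-956 had its nearest one 57251 bp away.

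Clusters known for testis expression or for the early embryo had no summit nearby. None of the 19 hairpins of the testis and rapidly evolving clusters had a reproducible summit within 2 kb, against 19.5% of all microRNA genes. Their nearest summits were 12541 to 46777 bp away. The 8 hairpins of the mir-309 to mir-6 cluster, which acts in the clearance of maternal messages, had none either, with nearest summits at 12998 to 13988 bp. Neighbouring hairpins share their surroundings, so these hairpins stand for few separate places. With 19.5% of all clusters near a summit, none at few places is not read as a trait of these clusters. In the 310 cluster, 4 of 7 hairpins were within 2 kb of a summit, against 19.5% of all microRNA genes, and these summits were weak. mir-310, mir-311 and mir-312 shared a summit near the start of qsm with a signal value of 349, and mir-992 had one near the start of Nnf1a with 346. The cluster straddles the limit: mir-312 at 1980 bp was just inside 2 kb and mir-991 at 2047 bp just outside.

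Seed families were listed only where at least 1 hairpin had a summit, and the first named here had the most such hairpins. It was thus picked by the count given for it. This AUUGCAC family of mir-92a, mir-92b, mir-310, mir-311, mir-312 and mir-313 had 5 of 6 hairpins within 2 kb of a summit, against 19.5% of all hairpins. Of the 5, mir-310, mir-311 and mir-312 share the weak summit of 349. By clusters it had 2 of 2, both with several hairpins. The share was 36.4% (8 of 22) of all clusters of 2 or more hairpins, and 17.5% (32 of 183) of single hairpins. The K-box family with the seed AUCACAG, known for repressing Notch targets and cell death genes, had 3 of 14 hairpins in 1 of 7 clusters. That cluster, mir-2a-1, mir-2a-2 and mir-2b-2, lies in an intron of spi, and its summits had signal values of 333 and 300. Of the GACUAGA family, mir-279 and mir-996 had a summit and mir-286 had none.

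The remaining strong summits were near hairpins in protein-coding genes, many of them with high numbers in their symbols. mir-4978 lies antisense to mam, a coactivator of Notch, and its summit 1123 bp away had a signal value of 2538 and ranks of 290, 327, 296 and 312. mir-4949 lies in an exon of ATPsynC, a subunit of the mitochondrial ATP synthase. Its summit 77 bp downstream had a signal value of 1880.0 and ranked 978, 509 and 253 in replicates 2 to 4, while replicate 1 had no summit within 100 bp of it. A second ATPsynC summit, 37 bp upstream, was secondary to the first and in the same peak interval, 3R 31218663 to 31219780. It was found in all 4 replicates, at ranks of 948, 1901, 4395 and 1025, so replicate 1 also had a summit in that interval. mir-2493 in CG42788 had a summit 942 bp upstream with a signal value of 1622 and ranks of 656, 1070, 750 and 496.

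mir-9377, in an intron of Tis11, which encodes a factor of messenger RNA decay, had 3 summits, the strongest at 1366 and ranked 865, 949, 1151 and 1297 in replicates 1 to 4. mir-2492, in an intron of the kinase gene Drak, had 1 summit, with a signal value of 1152 and ranks of 2003, 1115, 1295 and 1310. mir-4968, in an intron of Mob2, had 4 with the secondary one counted. The strongest of them had a signal value of 1061, ranked 2139, 1800, 2044 and 1583, and lay 129 bp from a start of Mob2. mir-4962, in an intron of the kinase gene Tlk, also had 4, 1 of them inside the hairpin with a signal value of 742. That summit ranked 2697, 2068, 2901 and 2744 in replicates 1 to 4, and it was the only one of the 67 inside a hairpin.

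**Figure D3:**
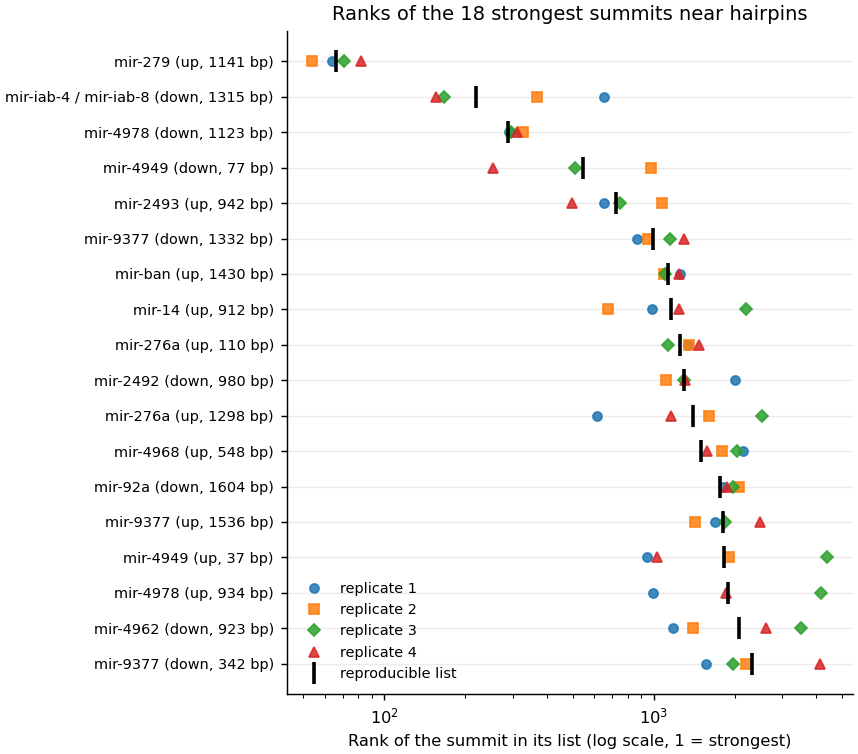
Rank of each of the 18 strongest reproducible summits within 2 kb of a hairpin (one per line, strongest at the top) in the lists of replicates 1 to 4 and in the reproducible list, on a log axis on which 1 is the strongest. Distances are to the nearest hairpin, up- or downstream along its strand (that of mir-iab-4 for the shared hairpin), and a missing symbol means no summit within 100 bp in that replicate. The 4 ranks of the mir-279 summit lie between 54 and 82, and those of the upstream bantam summit between 1088 and 1248, whereas those of the mir-iab-4 and mir-iab-8 summit run from 156 to 652.

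Hairpins with a host gene on their own strand had a summit nearby in 42 of 184 cases, 22.8% (exact binomial 95% interval 17.0 to 29.6%), and those without one, whether antisense to a gene or between genes, in 9 of 78, 11.5% (5.41 to 20.8%), with overlapping intervals. Counted by either strand, the shares were closer, at 44 of 211 hairpins inside a gene (20.9%) and 7 of 51 between genes (13.7%). Hairpins in a noncoding host had one in 14 of 48 cases (29.2%, 17.0 to 44.1%) and those in a protein-coding host in 28 of 136 (20.6%, 14.1 to 28.4%). Neighbouring hairpins share hosts and summits, and the differences were not tested. By position, 22 of 84 hairpins in exons, 20 of 100 in introns, 2 of 27 antisense to a gene and 7 of 51 between genes had a summit. Of the 100 in introns, 31 span a whole intron within 5 bp, as mirtrons do, and 3 of these had a summit, against 17 of the other 69 (24.6%). A further 3 that span an intron are among the 84 counted in exons and had none. Hairpins with a name or a number below 1000, mostly the earlier found ones, had one in 30 of 134 cases (22.4%) and the others in 21 of 128 (16.4%). Those with a name or a number below 1000 in a noncoding host had one in 14 of 42 cases (33.3%).

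Of the 67 summits, 43 lay upstream of the nearest hairpin, 23 downstream and 1 inside it, so that 64.2% were upstream. Among summits 2 to 5 kb away the share was 66.1%, 80 of 121. At their median the 67 were 924 bp from the hairpin. By position in other annotated genes, 30 lay within 500 bp of a transcription start, 22 in introns, 13 in exons and 2 between genes. A start of the hairpin's own host was within 500 bp of 22 summits, 18 of which were upstream of the hairpin. Of the other 45 summits, 25 were upstream.

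**Figure D4:**
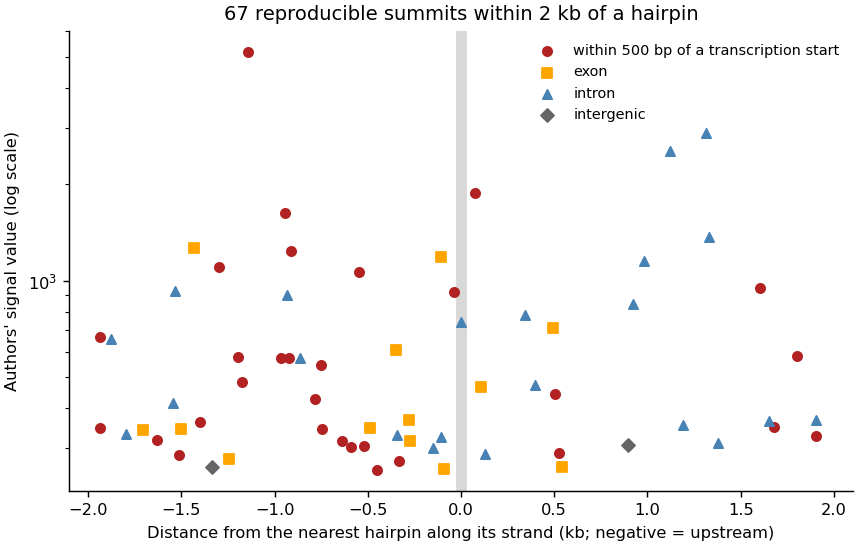
Signal value of the authors' peak caller (log axis) against the distance from the nearest hairpin along its strand (kb, negative is upstream) for the 67 reproducible summits within 2 kb, each point a summit, with symbols by place. Points spread over the whole window on both sides, 43 upstream and 23 downstream, with the highest, 5170, at the start of the mir-279 and mir-996 host.

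Measured at the host transcript instead of the hairpin, 70 of 167 host genes carried a reproducible summit no more than 1 kb from a start, 41.9% (exact binomial 95% interval 34.3 to 49.8%). Protein-coding hosts had one in 55 of 128 cases, 43.0%, against 26.2% of all protein-coding genes. Among protein-coding genes at least as long as the median host, 14095 bp, the share was 52.7% (759 of 1441), which is not matched to the lengths of the hosts, and the part of length in these shares was not tested. Noncoding hosts had one in 15 of 39 cases, 38.5%, and in 15 of 37, 40.5%, on the chromosome arms, where the ribosomal DNA scaffold is left out. The share was 21.2% of noncoding RNA genes on the arms, a class that holds these hosts as well. Among noncoding genes at least as long as the median noncoding host of 6436 bp, it was 28.0% (26 of 93). Through their hosts 81 of 184 hairpins had a summit at a start, 45 of these without one within 2 kb. A summit near the hairpin or at a host start was found for 96 of 262 genes (36.6%). Counting host starts as well can only raise the share above the 19.5% at the hairpin alone. No background share was counted for the 81 or the 96, so neither is read as a result about microRNA genes.

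Some starts of noncoding hosts had summits although these lay beyond 2 kb from the hairpin. For lncRNA:Hsromega, the heat shock RNA that carries mir-4951, the signal value was 1387 and the ranks were 731, 854, 1062 and 1235 in replicates 1 to 4. For lncRNA:CR43857, the host of mir-275, it was 902, with ranks of 1222, 1089, 2173 and 6506, the last well below the others. Weaker ones were at the starts of the hosts of mir-9a (437), mir-184 (338) and mir-bft (327). Of the 15 summits at noncoding host starts, 11 were supported by all 4 replicates, against 53.2% of all reproducible summits. Each of the 15 was picked as the strongest at the starts of its host, which favours support, so the count is not read as a trait of host starts.

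Among protein-coding hosts the strongest summit at a start was that of Glut4EF, which carries mir-9371, with a signal value of 9976 and rank 14. Next were spi, the gene of an Egfr ligand and host of mir-2a-1, mir-2a-2 and mir-2b-2, with 2629, and grp, the Chk1 checkpoint kinase gene and host of mir-9c, mir-306, mir-79 and mir-9b, with 2418. E2f1, a regulator of cell cycle entry that hosts mir-11 and mir-998, had 2323. None of the hairpins in Glut4EF, grp or E2f1 had a reproducible summit within 2 kb.

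Sequences that resemble the known Doublesex binding site were uncommon at these summits. The core ACAATGT, sought on both strands within 50 bp of the summit, was present at 4 of 67, 5.97% (exact binomial 95% interval 1.65 to 14.6%), against 8.06% of all reproducible summits. ACAAAGT, a close variant that cannot match the same bases as the core, was present at 2 of 67, 2.99% (0.364 to 10.4%), against 6.84%. The 4 summits with the core were those near mir-2492, mir-ban (the downstream one), mir-4982 and mir-2496. The last, at X 2009849, was among the weakest, with a signal value of 257 and no summit of any replicate list within 100 bp. Replicate 3 had one just beyond that limit, at X 2009748 with rank 7841, in the same peak interval. The 2 with ACAAAGT were those near mir-iab-4 and mir-iab-8 and near mir-995.

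Windows of 50 bp on each side of a summit are shown for the strongest one and for those of the loci described above that hold a match, on the plus strand of dm6 as in RefSeq, with capitals for ACAATGT or ACAAAGT or the reverse complement of either, and for the let-7 complex, which holds none.
mir-279, 3R:29214394-29214494: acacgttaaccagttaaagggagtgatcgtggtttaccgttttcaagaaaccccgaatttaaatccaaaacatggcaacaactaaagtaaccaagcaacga
mir-iab-4, 3R:16857607-16857707: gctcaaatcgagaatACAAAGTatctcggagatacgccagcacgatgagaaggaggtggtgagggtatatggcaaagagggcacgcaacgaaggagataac
mir-ban, 3L:642734-642834: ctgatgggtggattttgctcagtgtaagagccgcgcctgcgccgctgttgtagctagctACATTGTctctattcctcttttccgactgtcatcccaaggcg
mir-2492, X:11548427-11548527: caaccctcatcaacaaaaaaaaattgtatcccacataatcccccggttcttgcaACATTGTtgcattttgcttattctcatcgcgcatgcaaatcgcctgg
mir-100, 2L:18470522-18470622: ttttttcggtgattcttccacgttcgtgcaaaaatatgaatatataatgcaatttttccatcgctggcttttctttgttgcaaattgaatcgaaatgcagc
The match was centred 12 bp from the summit near mir-ban and 7 bp from that near mir-2492, in each case on the minus strand, and 32 bp on the lower-coordinate side of the summit near mir-iab-4. The window at the start of the mir-279 and mir-996 host, the strongest of all, held neither sequence.

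A list of 21 genes covers the machinery that makes and uses microRNAs, and includes genes of the small interfering RNA pathway such as AGO2, r2d2 and Dcr-2. Of these 21, 8 (38.1%) had a summit within 1 kb of a start, against 26.2% of all protein-coding genes. AGO2, the Argonaute of small interfering RNAs, had the strongest of these summits with a signal value of 1863, and r2d2, which helps to load it, had 833. AGO1, the Argonaute that holds microRNAs, had 597, and gw, the GW182 protein it recruits, had 519. Tailor, which adds uridines to hairpins, had 485, the deadenylase gene twin had 458, pasha had 292 and the cap-binding gene Cbp20 had 281. drosha, Dcr-1, Dcr-2, loqs, Ranbp21, Hen1, Nbr, Ars2, Cbp80, Ge-1, me31B, Not1 and Pop2 had none.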

How the data were processed

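The samples are 4 biological replicates of a ChIP-seq for tagged Doublesex in whole prepupae, 1 group per the labels, so no groups were compared and no test was run. MicroRNA genes and all lists of genes were chosen with earlier results of these data known. Per the deposited text notes, the peak lists are on dm6, each replicate was called against 1 control file, and the pooled and reproducible lists rest on replicates 2, 3 and 4. Aligner, peak caller, versions and reproducibility threshold were not given in the sources used here. The deposited signal value is a score of the authors' peak caller, not normalized between lists, and was used to rank summits within a list. The deposited −log10 q-value reached a common ceiling and was not used for ranks. The deposited summit position counts from the start of the interval and was turned into a 1-based coordinate. All lists but the reproducible one have a fixed length, so list length says nothing of the number of sites, and depth is unknown. Control samples and signal tracks were not used here.

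Distances ran from the summit to the nearest base of the hairpin in Ensembl release 115, whose coordinates are those of dm6, and sequence came from RefSeq Release 6. All summits lay within the arm lengths of that sequence. A host is a gene other than a microRNA that holds the hairpin, and a bound start has a reproducible summit within 1 kb. Background shares came from the same lists over all positions of the arms or all genes of a class. Named were the genes of the 12 strongest summits, those with the core motif, the members of the role lists and the genes on each side of the 2 kb limit. Other genes, such as the protein-coding hosts, were named after their values were seen. Binomial intervals are exact (Clopper-Pearson, 95%). Alternatives covered distance, list, number of summits, clusters, motif window and each replicate left out. Python 3.11.15, pandas 2.3.3, numpy 2.4.6, scipy 1.17.1 and matplotlib 3.10.9 were used, and the counting was tested on simulated data.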

Additional observations from a re-analysis of the deposited data

How the results depend on the processing

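The count of 51 microRNA genes followed the chosen distance and list, as did the genome background. It was 33 within 1000 bp (12.6% of genes, 11.1% of genome positions), 19 within 500 bp (7.25 and 6.19%), 99 within 5000 bp (37.8 and 33.4%), 23 with the 4577 strongest reproducible summits (8.78 and 10.7%) and 99 with the whole pooled list (37.8 and 37.3%). With the 4577 strongest summits alone, the share of genes was below that of genome positions. Clusters with a summit, 40 in all, numbered 18 within 500 bp, 84 within 5000 bp and 19 with the 4577 strongest. The 67 summits became 38 within 1000 bp, 19 within 500 bp, 188 within 5000 bp and 32 of the 4577 strongest. The mean share of genes over replicates, 21.4%, was 9.64% with the strongest 5000, 39.7% with all summits, 13.0% within 1000 bp and 8.02% within 500 bp, and 20.9 to 21.6% with a replicate left out. Support by all 4 replicates, 47.8%, was 19.4% within 50 bp, 61.2% within 200 bp, 29.9% with the strongest 5000 and 73.1% with all summits, and 50.7 to 59.7% with a replicate left out. Among hairpins with a host on their strand, the share with a summit was 22.8%. It was 15.8% within 1000 bp, 9.78% within 500 bp, 43.5% within 5000 bp and 12% with the 4577 strongest. With those 4577, host starts were at 28.1% in place of 41.9% and pathway genes at 5 in place of 8. Each of these settings takes fewer or more summits or a narrower or wider window, and what moved the values was not tested further. The other 26 of 52 alternatives, moved values by less than the spread between replicates, their counting interval or 1.5 times. Within 100 bp the core motif was at 10.4% of the summits near hairpins and 10.9% of all reproducible summits, in place of 5.97 and 8.06%. No paired analysis was possible because there is 1 group. Depth is unknown, so a hairpin without a summit may lie below what these libraries could show, and replicates 2, 3 and 4 made the reproducible list themselves.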
